A study of Mus musculus with 9 samples.

Results

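Brain RNA of 6 mice with ligated deep cervical lymph nodes was compared with that of 3 mice without ligation, for every gene of the count table. All 9 mice of the series entered this comparison, and 14746 of its 20731 genes had enough counts to be tested. The unligated side was the CVST group, male C57BL/6J mice of 8 to 10 weeks in which a thrombus was induced with ferric chloride in the superior sagittal sinus (cerebral venous sinus thrombosis). The ligated side pooled 3 CVST+Ligation mice, which had the same thrombosis and ligated nodes, with 3 mice of the 4-PBA group. The 4-PBA mice also had thrombosis and ligation, and received 4-phenylbutyric acid, a compound that dampens stress of the endoplasmic reticulum (ER). The methods give the dose as 100 mg/kg by intraperitoneal injection 30 min before modelling, whereas the design text of the series places it after ligation. The methods mention solvent for control mice only, and no group of this comparison had 4-PBA without ligation. Every sample was taken on day 2, from brain according to the labels and from cortex according to the design text. Every mouse of the comparison carried a thrombus, so it concerns ligation on top of thrombosis, with the drug present in 3 of the 6 ligated mice.

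Lymph from the meninges drains along the skull base into the deep cervical lymph nodes, and ligating these nodes impairs that outflow. In CVST the clotted sinus blocks venous outflow from the cortex, and edema, hemorrhage and neuroinflammation can follow. Neurons switch on immediate early genes within minutes of activity, whereas genes that define a brain region or a transmitter type mostly mark the neurons present. The level of such a gene per neuron can also vary. In bulk RNA a lower level can come from fewer cells of a type or from less RNA per cell, and these cannot be told apart here.

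The libraries held 18100739 to 25091498 counted reads. A floor of 3 counts in a library was 0.114 to 0.163 CPM (library-scaled counts, normalized with TMM), the unit of all levels below, and it covers counting error only. The 6 ligated libraries had 15908 to 16227 genes with at least 1 count and the unligated ones 15838 to 15879 (exact permutation test, p = 0.0238, adjusted p = 0.119 over 5 library measures). With 6 mice against 3, 0.0238 is the smallest two-sided p this test can give. On the first principal component of log2 CPM, which held 33.5% of the variance, the CVST libraries lay between -56.0 and -40.5 and the ligated ones between -9.97 and 54.2. Within the ligated side CVST+Ligation 2 stood apart, with the lowest Slc6a3 and the highest level of several hindbrain genes, and results that rest on it are marked below.

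At an adjusted p below 0.05, 32 genes differed between the sides (quasi-likelihood test of edgeR, Benjamini-Hochberg adjusted), which is 0.217% of those tested. Of these, 22 were higher in the ligated mice (0.149% of tested genes) and 10 were lower (0.0678%). The higher genes were led by enzymes and transporters of dopamine neurons and by transcription factors of thalamus and midbrain, and 12 of the 22 stand in the lists of region marker genes, which hold 191 of the tested genes (1.30%). Of these 12, 6 passed the expression filter through ligated libraries alone and could only be higher. The region lists were written with earlier results of these data known, so these shares describe the genes and are no test. The lower genes were led by the immediate early gene Egr1, and 0 of the 10 stand in these lists. The smallest change among the higher genes was 1.68-fold, and the lower genes were 1.54-fold to 3.21-fold lower. In each of the 32 genes every ligated mouse lay on the same side of all unligated mice, which held for 8.48% of all tested genes (4.41% higher and 4.07% lower). The adjusted p of 26 of the 32 lay between 0.045 and 0.05, and 21 further genes lay between 0.05 and 0.055. The number of genes past the threshold moved with single mice. It was 1, 8 and 83 without CVST 1, 2 and 3, it was 7, 19 and 142 without CVST+Ligation 1, 2 and 3, and it was 2, 7 and 3 without 4-PBA 1, 2 and 3. DESeq2 put 890 genes past the same threshold, including all 32. Slc18a2 passed in all 9 fits without 1 mouse, Ddc in 8, Chrna6 and Tcf7l2 in 6, Egr1 in 5 and each of the others in 1 to 3.

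**Figure D1:**
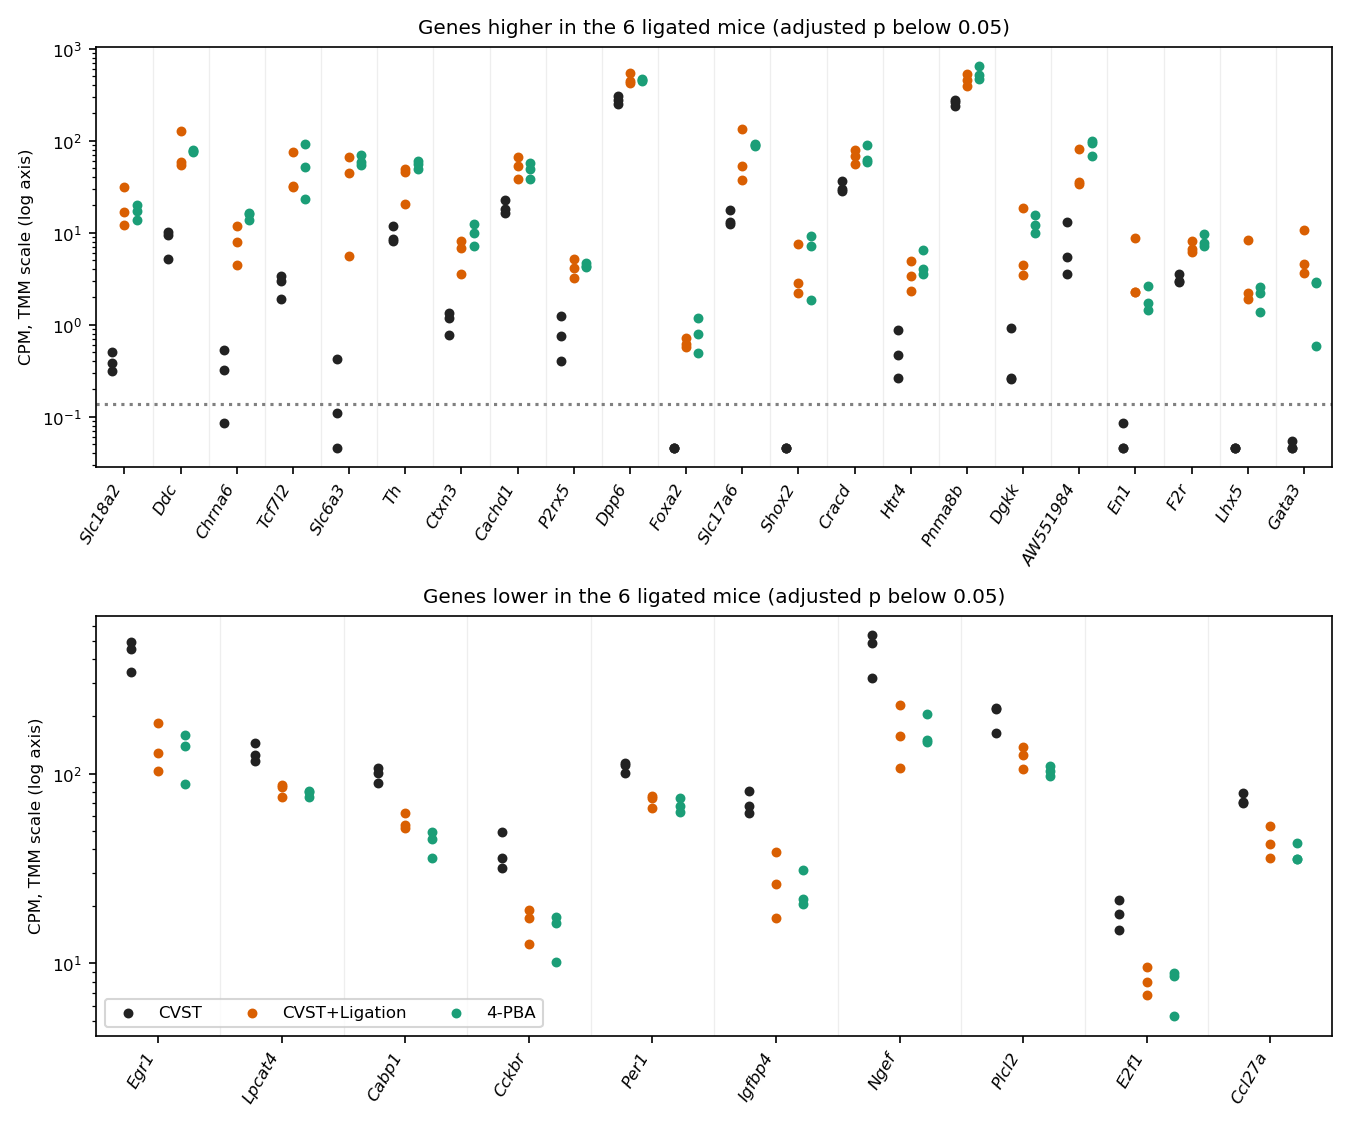
Levels of the 32 genes past an adjusted p of 0.05 in each mouse, in CPM on a log axis, with black points for CVST, orange for CVST+Ligation and green for 4-PBA mice. The upper panel holds the 22 higher genes, the lower panel the 10 lower genes, the dotted line is the mean floor of 3 counts, and values at or near 0 are drawn at the lowest level shown. In every gene the black points lie apart from the orange and green ones.

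At an unadjusted p below 0.05 there were 2453 genes, 16.6% of those tested, with 1294 higher (8.78%) and 1159 lower (7.86%). The higher share among them was 52.8%. It was 64.4% when only library totals were used for scaling and 40.3% after correcting for gene length, so this split depends on the scaling. The median log2 fold change over all genes was 0.0569 with total counts and -0.0482 with the length correction. The lists below are given as counts and medians beside these percentages.

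Dopamine neurons make their transmitter from tyrosine with tyrosine hydroxylase (Th) and aromatic L-amino acid decarboxylase (Ddc). They load it into vesicles with Slc18a2 and retrieve it with Slc6a3. All 4 genes were higher in the ligated mice. Slc18a2 was at 0.510, 0.310 and 0.380 CPM in the unligated mice and at 12.3 to 31.6 CPM (median 17.1) in the ligated ones. Its log2 fold change was 5.51 (standard error 0.41), the smallest p of all genes (edgeR, Benjamini-Hochberg adjusted p = 0.000905). Ddc was at 5.18, 9.36 and 10.2 CPM without ligation and at 55 to 127 CPM (median 76.1) with it. The log2 fold change of Ddc was 3.26 (standard error 0.33), a 9.56-fold higher level (edgeR, Benjamini-Hochberg adjusted p = 0.00951). The ligated mice thus had several times the transcript of every unligated mouse in both genes, without overlap. Th lay at 11.7, 8.16 and 8.52 CPM in the CVST mice and at 20.6 to 59.4 CPM (median 49.3) after ligation. The difference on the log2 scale was 2.30 (standard error 0.32) (edgeR, Benjamini-Hochberg adjusted p = 0.045), and the lowest ligated mouse, CVST+Ligation 2, still lay above the highest unligated one. Slc6a3 was close to the floor without ligation, at 0.425, 0 and 0.108 CPM, and at 5.62 to 69.5 CPM (median 56.4) with it. The log2 fold change of Slc6a3 was 8.03 (standard error 1.04) (edgeR, Benjamini-Hochberg adjusted p = 0.0303). Slc6a3 passed the expression filter through ligated libraries alone, so it could only be higher. The low end of its ligated range was CVST+Ligation 2, while the other ligated mice had at least 44.7 CPM. Chrna6, a nicotinic receptor subunit found in dopamine neurons, had 0.0850, 0.532 and 0.325 CPM without ligation and 4.43 to 16.5 CPM (median 12.7) in ligated mice, a log2 fold change of 5.21 (standard error 0.62) (edgeR, Benjamini-Hochberg adjusted p = 0.0277).

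Of the list of 20 genes of midbrain dopamine neurons, 16 were higher and 1 lower at an unadjusted p below 0.05, and 7 passed the adjusted threshold. Of these 20 genes, 7 passed the expression filter through ligated libraries alone and so had to be higher. Among the other 13 genes, 9 were higher, and their median log2 fold change was 1.98. Over all genes tested the median was 0.00011. The summed level of the list was 191 to 218 CPM in the unligated and 463 to 679.9 CPM in the ligated mice, so the sums did not overlap. The sample labels name brain and the design text cortex, and neither names midbrain. The part of the sampled region in these differences was not tested.

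Th is shown with its upstream sequence because it was the only one of the 24 matched genes among the 32 to hold the cyclic AMP response element, searched as TGACGTCA on both strands in the 250 bases before the start site. This element was found in 1.55% of 32851 RefSeq promoters of the same length. The circadian gene Per1, described below, is shown beside it for the E-box CACGTG, which was found in 6.02% of these promoters and in 5 of the 24 genes (AW551984, Cckbr, En1, Per1 and Slc6a3). Both motifs read the same on either strand and do not overlap each other. The sequences are from RefSeq on GRCm38.p6, written 5′ to 3′ on the strand of the gene up to the first annotated exon, with the motif in capitals. Th lies on the minus strand with 231 bases at chr7:142900015-142900245, and its element spans bases 45 to 38 before the start site, which are bases 206 to 213 of the printed run. The 19 bases next to the start site are not printed. Per1 lies on the plus strand with 249 bases at chr11:69098699-69098947, and its E-box spans bases 166 to 161 before the start site, or 85 to 90 of the printed run, which stops 1 base short of that site.
Th: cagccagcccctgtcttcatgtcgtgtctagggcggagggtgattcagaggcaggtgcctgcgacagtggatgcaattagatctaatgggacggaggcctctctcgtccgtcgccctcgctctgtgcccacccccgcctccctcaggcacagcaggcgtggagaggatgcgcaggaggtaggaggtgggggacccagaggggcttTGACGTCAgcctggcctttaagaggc
Per1: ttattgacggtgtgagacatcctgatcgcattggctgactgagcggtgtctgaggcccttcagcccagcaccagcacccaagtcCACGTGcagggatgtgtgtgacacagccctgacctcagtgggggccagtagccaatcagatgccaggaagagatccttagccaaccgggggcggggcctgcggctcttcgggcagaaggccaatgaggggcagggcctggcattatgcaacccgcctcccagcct
A match of letters is a description and does not show that a factor binds there.

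Tcf7l2, a Wnt pathway transcription factor strongly expressed in thalamic neurons, was at 3.36, 2.97 and 1.90 CPM without ligation and at 23.5 to 91.3 CPM (median 41.8) with it. This was a log2 fold change of 4.20 (standard error 0.52) (edgeR, Benjamini-Hochberg adjusted p = 0.0296). Slc17a6, the vesicular glutamate transporter of subcortical excitatory neurons, was at 12.3, 17.6 and 13.2 CPM without and 37 to 134 CPM (median 89.3) with it, a 5.74-fold difference (edgeR, Benjamini-Hochberg adjusted p = 0.0469). Neither gene overlapped between the sides. Shox2, a homeobox gene of thalamic neurons, had 0 counts in each unligated library and 1.85 to 9.30 CPM (median 4.98) in ligated mice, at least 36.3-fold higher in the mean against a floor of 3 counts per library. Of 20 thalamic genes, 17 were higher and 0 lower at an unadjusted p below 0.05, and among the 18 that did not pass the filter through ligated libraries alone 15 were higher, with a median log2 fold change of 1.63. Patj and Ntng1 had the next smallest p after these, with log2 fold changes of 2.94 and 1.54 and adjusted p of 0.0618 and 0.0644 in edgeR with Benjamini-Hochberg adjustment. Summed over the thalamic list, the level was 201 to 239 CPM in unligated and 426 to 1175 CPM in ligated mice.

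The list of transcription factors of midbrain and brainstem neurons had a summed level of 121 to 198 CPM in the unligated and 103 to 288 CPM in the ligated mice, so these sums overlapped. Its members Lhx5 and Gata3 passed the adjusted threshold, as did the factors Foxa2 and En1 of the dopamine list, and each had few or no counts without ligation. Lhx5 had 0 counts in the 3 CVST libraries and 1.39 to 8.40 CPM (median 2.21) in the ligated ones, at least 22.1-fold higher in the mean. Foxa2, a factor needed for dopamine neurons, also had 0 counts without ligation and reached 0.488 to 1.18 CPM (median 0.671) with it, at least 5.18-fold higher. Gata3 had 1 count and En1 2 counts over the unligated libraries together. In the ligated mice they were at 0.589 to 10.7 CPM (median 3.29) and 1.43 to 8.66 CPM (median 2.28), with ratios of counts per read of 261 (95% interval 46.6 to 10320.1) and 96.4 (95% interval 26.5 to 799). The intervals are exact and cover counting error only. CVST+Ligation 2 was the highest ligated mouse for Lhx5, Gata3 and En1. Of 36 listed factors 20 were tested, and 18 of these were higher at an unadjusted p below 0.05. Because 12 of the 20 passed the filter through ligated libraries alone, this count describes them and supports nothing. Of the remaining 8, 6 were higher.

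Other marker lists showed how the regions varied from mouse to mouse. Serotonin neuron genes, which share Slc18a2 and Ddc with the dopamine list, had 7 of 11 higher. Of these 11, 3 passed the filter through ligated libraries alone, and 4 of the other 8 were higher, with a median log2 fold change of 0.90. The summed level of the list was 48.7 to 58 CPM without and 124 to 409 CPM with ligation. Much of this gap lies in the shared genes, with Ddc alone at 5.18 to 10.2 CPM without and 55 to 127 CPM with ligation. The sum was not taken without them. Without CVST+Ligation 2 the median of this list fell from 3.26 to 0.87. Cerebellar genes had 12 of 18 higher, or 9 of 15 without the 3 that passed through ligated libraries alone, and their sum was 689 to 1374 CPM in unligated and 609 to 3989 CPM in ligated mice and overlapped. CVST+Ligation 2 had the highest cerebellar sum, and without it the median of the list fell from 2.29 to 0.79. The transcription factors Irx1, Barhl2 and Zic1 were highest there at 16.9, 13.7 and 137 CPM. Hypothalamic genes had 7 of 14 higher and 1 lower, and 3 higher and 1 lower among the 9 that did not pass through ligated libraries alone. Their sum overlapped, at 315 to 610 against 155 to 862 CPM. Over these 9 genes the median log2 fold change was 0.069 in the CVST+Ligation mice and 2.31 in the 4-PBA mice. Olfactory bulb genes had 5 of 10 higher (4 of 9 without the 1 that passed through ligated libraries alone) and did not overlap in their sum, at 39 to 42.6 against 81.4 to 132 CPM. This list shares Th with the dopamine list, and without Th the sums were 29.2 to 34.4 and 40.3 to 78.6 CPM. Genes of cholinergic neurons had 4 of 12 higher, or 3 of 11 on the same terms, with medians over the 11 of -0.12 in the CVST+Ligation mice and 1.38 in the 4-PBA mice. The difference between the arms in these medians was not tested.

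**Figure D2:**
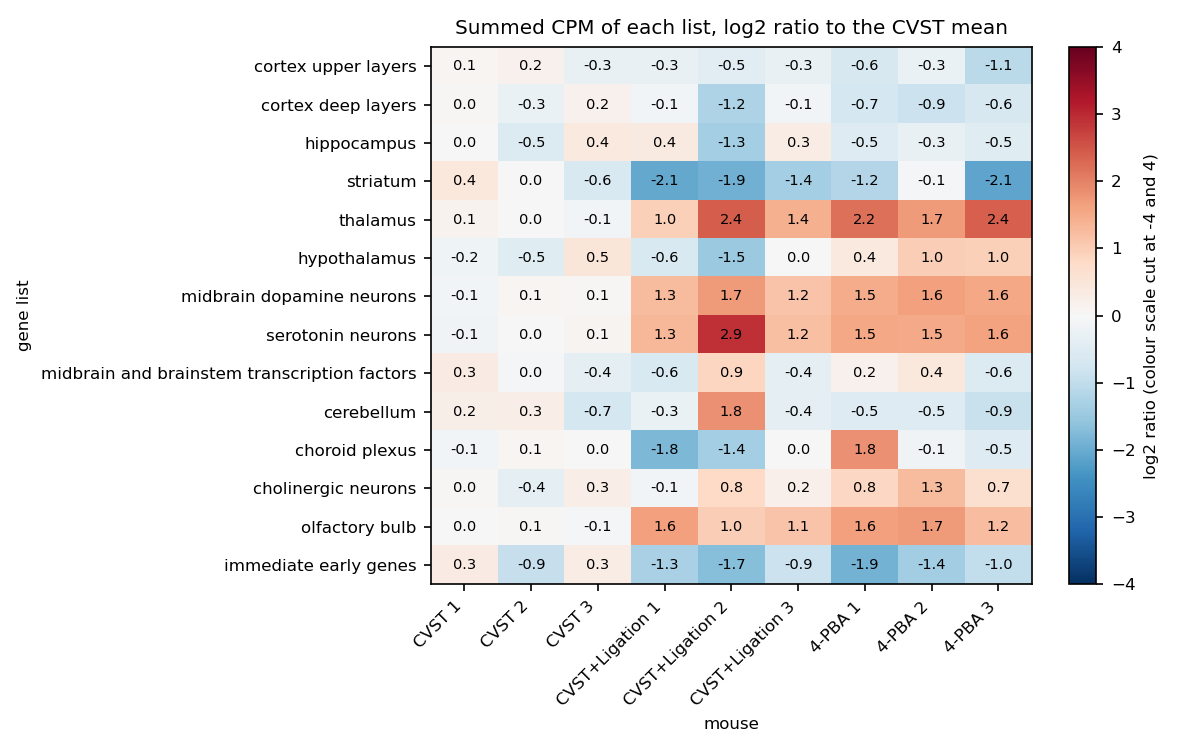
Summed CPM of each region list, and of the immediate early genes, in each mouse as the log2 ratio to the mean of the 3 CVST mice, with red for higher and blue for lower sums. The thalamus, dopamine, serotonin and olfactory bulb rows are positive in all 6 ligated mice, and the serotonin and olfactory bulb lists share genes with the dopamine list. The rows of striatum, upper and deep cortical layers and immediate early genes are negative in all 6. The cerebellum row is positive only in CVST+Ligation 2 among the ligated mice.

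Striatal and cortical genes leaned the other way. Of 21 striatal genes, 0 were higher and 11 lower at an unadjusted p below 0.05, with a median log2 fold change of -1.23. The count was 13 with DESeq2, and 0 genes passed the adjusted threshold in edgeR. Ppp1r1b, the dopamine-regulated phosphatase inhibitor of striatal projection neurons, was at 514, 387 and 258 CPM without ligation and 49.4 to 253 CPM (median 84.9) with it (edgeR, Benjamini-Hochberg adjusted p = 0.0972). Rgs9, a striatal regulator of G protein signaling, was at 205, 127 and 61.2 CPM and 15.3 to 82.9 CPM (median 23.5) and overlapped between the sides. In both genes 4-PBA 2 was the highest ligated mouse. Upper-layer cortical genes had 5 of 14 lower and 0 higher, with a median of -0.41, and deep-layer genes had 3 of 15 lower and 1 higher. Lamp5, a membrane protein gene of upper-layer neurons, was at 125, 266 and 80.2 CPM in unligated and 33 to 68.6 CPM (median 51.2) in ligated mice. Tbr1, a transcription factor of deep-layer excitatory neurons, was at 130.4, 147 and 74.3 CPM and 18.6 to 63.4 CPM (median 24.4), without overlap. Their log2 fold changes were -1.63 and -1.86, with adjusted p of 0.0648 and 0.0707 in edgeR with Benjamini-Hochberg adjustment. Cortical markers were present in every library. Markers of other regions were present on both sides, with striatal genes summing to 1402 to 2834 CPM in the unligated and 496 to 1997 CPM in the ligated mice.

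Several receptor genes were among the genes that passed. Htr4, a serotonin receptor coupled to cyclic AMP, was at 0.467, 0.266 and 0.868 CPM in unligated and 2.32 to 6.52 CPM (median 3.80) in ligated mice (edgeR, Benjamini-Hochberg adjusted p = 0.0484). P2rx5, an ATP-gated channel, was at 1.23, 0.399 and 0.759 CPM and 3.25 to 5.21 CPM (median 4.33) (edgeR, Benjamini-Hochberg adjusted p = 0.0469). F2r, the thrombin receptor PAR1, was at 3.57, 3.02 and 2.93 CPM without ligation and 6.12 to 9.75 CPM (median 7.44) with it. Its log2 fold change was 1.26 (standard error 0.21) (edgeR, Benjamini-Hochberg adjusted p = 0.0484), and the sides did not overlap. The thrombin receptor was the only member of 18 coagulation and fibrinolysis genes to pass, and 4 of them were higher and 2 lower at an unadjusted p below 0.05. Of 28 serotonin and acetylcholine receptor genes, 10 were higher and 3 lower at that level, or 9 and 3 of 27 without the 1 that passed the filter through ligated libraries alone. Htr7 and Htr2c lay just outside the adjusted threshold (0.0514 and 0.0542 in edgeR with Benjamini-Hochberg adjustment), with log2 fold changes of 1.37 and 2.01. Chrna6 also stands in the dopamine list, and the part of the sampled region in the receptor differences was not tested.

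The remaining higher genes were expressed above the floor in every unligated mouse. Dpp6, an auxiliary subunit of A-type potassium channels, was at 303, 251 and 277 CPM without and 421 to 546 CPM (median 451) with ligation, the smallest difference of the 22 (1.68-fold, edgeR, Benjamini-Hochberg adjusted p = 0.0469). Pnma8b was at 236, 262 and 273 CPM and 388 to 646 CPM (median 494), a 1.95-fold difference. Cracd was 2.18-fold and Cachd1 2.64-fold higher. These 4 genes differed by less than 3-fold, with ranges between ligated mice of less than 2-fold. Ctxn3, a small membrane protein gene, was 7.25-fold higher, AW551984 9.48-fold and Dgkk, a diacylglycerol kinase gene, 22.6-fold. Dgkk ranged from 3.47 to 18.7 CPM (median 10.9) within the ligated side, against 0.255, 0.266 and 0.922 CPM without ligation. All 7 genes had an adjusted p of 0.0469 to 0.0484 in edgeR with Benjamini-Hochberg adjustment.

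Among the genes that fell, Egr1 had the smallest p. Egr1 is an immediate early transcription factor that neurons induce with activity. It was at 451, 342 and 495 CPM in the unligated mice and at 88.3 to 184 CPM (median 134) in the ligated ones. The log2 fold change was -1.68 (standard error 0.21), a 3.21-fold lower level (edgeR, Benjamini-Hochberg adjusted p = 0.0296), and the highest ligated mouse lay well below the lowest unligated one. Per1, which belongs to the circadian clock and is also induced by activity and glucocorticoids, was at 113, 101 and 111 CPM and 62.5 to 76.1 CPM (median 71.2). Its log2 fold change of -0.62 (standard error 0.10) was small but the mice of each side were close together (edgeR, Benjamini-Hochberg adjusted p = 0.0484). Arc, an activity-dependent regulator of synapses, was at 275, 120.5 and 254 CPM and 30.1 to 93.5 CPM (median 47.4), just outside the threshold (edgeR, Benjamini-Hochberg adjusted p = 0.0539). Npas4 was at 167, 7.89 and 157 CPM without and 3.45 to 11.1 CPM (median 5.57) with ligation (edgeR, Benjamini-Hochberg adjusted p = 0.0542). The sides overlapped in Npas4 because CVST 2 was far below the other unligated mice. Of 34 immediate early genes, 14 were lower and 0 higher at an unadjusted p below 0.05 (15 and 0 with DESeq2), with a median log2 fold change of -0.93. Their summed level was 1355 to 3199.7 CPM in unligated and 701 to 1406 CPM in ligated mice, and these ranges overlapped through CVST 2. Clock genes had 5 of 19 lower and 0 higher. Npas2, a clock factor abundant in striatum and cortex, was at 50.8, 53.7 and 38.5 CPM and 12.2 to 28.8 CPM (median 24), and Nr1d1 at 138, 105 and 116 CPM and 64.9 to 109 CPM (median 81.6). The time of day of sampling is not given in the labels. Egr1, Arc and Npas2 were lower beside striatal and cortical markers, and how far the sampled region entered these differences was not tested.

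The other lower genes had varied roles. Ngef, a guanine nucleotide exchange factor of the ephrin pathway enriched in striatum and cortex, was at 485, 539 and 319 CPM without and 108 to 229.8 CPM (median 154) with ligation. On the log2 scale Ngef changed by -1.43 (standard error 0.23) (edgeR, Benjamini-Hochberg adjusted p = 0.0484). Cckbr, the brain cholecystokinin receptor, was at 32, 49 and 36 CPM and 10.2 to 19.1 CPM (median 16.8), 2.51-fold lower. Igfbp4, which binds insulin-like growth factors, was at 67.7, 81.1 and 61.7 CPM and 17.3 to 38.6 CPM (median 23.9), 2.71-fold lower. All 3 genes were lower in every ligated mouse than in any unligated one. Cabp1, a neuronal calcium sensor, was at 89.2, 107 and 100.2 CPM and 36 to 61.9 CPM (median 50.4), with a log2 fold change of -0.99 (standard error 0.15). Lpcat4, an enzyme of phospholipid remodeling, was at 117, 145 and 126 CPM and 75.1 to 87.5 CPM (median 80.7). E2f1, a cell cycle transcription factor, was 2.32-fold lower, Plcl2 1.78-fold and Ccl27a, a chemokine gene, 1.79-fold. For each of the 8, edgeR with Benjamini-Hochberg adjustment gave an adjusted p of 0.0469 to 0.0484. Just outside the threshold, Arpp19 and Arhgap10 fell short at an adjusted p of 0.0514 in the same test, with log2 fold changes of -1.71 and -1.13.

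The study measured genes of ER stress, apoptosis and inflammation and markers of cell types by other assays, and their transcripts were followed here in each mouse. Of these 22 genes, 18 were tested, 0 were higher and 3 lower at an unadjusted p below 0.05 (0 and 3 with DESeq2). The 3 lower genes in edgeR were the cell markers Rbfox3 and Aif1 and the stress gene Ddit3, and 0 passed the adjusted threshold in edgeR. Hspa5, the ER chaperone BiP, was at 738, 728 and 979 CPM without and 739 to 936 CPM (median 868) with ligation, and the 95% interval of its log2 fold change was -0.20 to 0.35. Eif2ak3, which encodes the ER stress kinase PERK, was at 56.1, 54.1 and 42.5 CPM and 39.9 to 53 CPM (median 44.9), with an interval of -0.42 to 0.15. Both genes overlapped between the sides. Atf4, the transcription factor downstream of PERK, was at 274, 210.4 and 331 CPM and 196 to 263 CPM (median 212), and its target Ddit3, which encodes CHOP, was at 65.7, 49.7 and 60.8 CPM and 41.5 to 54.9 CPM (median 46.5). The log2 fold change of Ddit3 was -0.32 (standard error 0.12), on the lower side in ligated mice at an unadjusted p of 0.0227 in edgeR and not after adjustment (Benjamini-Hochberg adjusted p = 0.227). It was -0.25 in the CVST+Ligation and -0.40 in the 4-PBA mice against CVST (edgeR's unadjusted p = 0.111 and 0.0214). Casp12, the caspase tied to ER stress, was expressed at a low level, at 1.57, 2.17 and 1.36 CPM and 0.992 to 4.59 CPM (median 2.02). The 95% interval of its log2 fold change, -0.65 to 1.40, holds changes in both directions. The apoptosis regulators Bax, Bcl2 and Bbc3 had log2 fold changes of -0.35, 0.28 and -0.10, with all sides overlapping.

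Whole lists of ER stress, apoptosis and antioxidant genes stayed close to the median of all genes. ER chaperones and degradation factors had 2 of 28 genes higher, the chaperone Canx (calnexin) and Derl1 of the degradation machinery, and 0 lower at an unadjusted p below 0.05. Their log2 fold changes were 0.28 and 0.23, and the list's median was -0.029 (-0.082 in the CVST+Ligation and 0.014 in the 4-PBA mice). The integrated stress response had 0 of 30 higher and 2 lower, Nupr1 and Ddit3. Its median was 0.013, with -0.037 in the CVST+Ligation and -0.024 in the 4-PBA mice. Nupr1, a stress-induced cofactor, was at 104, 33.6 and 58.9 CPM and 5.96 to 35.8 CPM (median 21.9), with overlap. Apoptosis genes had 0 of 28 higher and 2 lower. Antioxidant enzymes and NRF2 targets had 2 of 34 higher and 0 lower, with a median of -0.01. Gpx3, a secreted glutathione peroxidase, was at 6.37, 5.94 and 11 CPM without ligation, at 12.6, 33.8 and 18.7 CPM in the CVST+Ligation mice and at 41.6, 71.2 and 47.4 CPM in the 4-PBA mice.

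**Figure D3:**
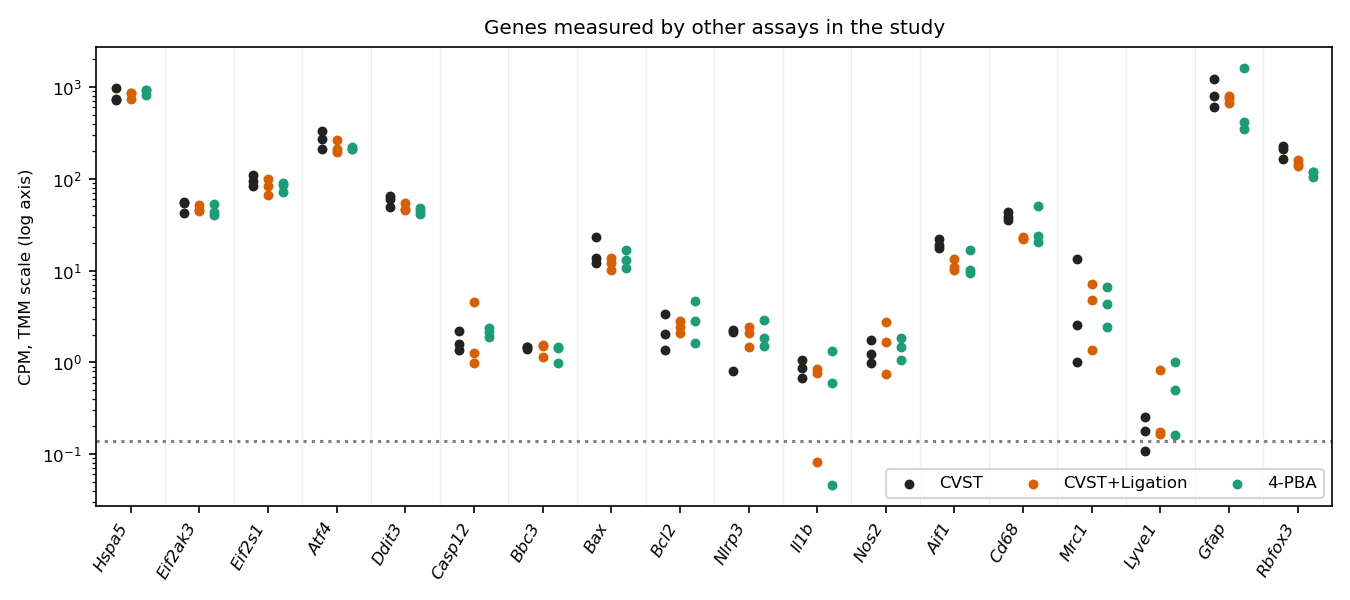
Levels of 18 genes of ER stress, apoptosis, inflammation and cell types, in CPM on a log axis, for each mouse, with black points for CVST, orange for CVST+Ligation and green for 4-PBA. The dotted line is the mean floor of 3 counts, and the value at 0 is drawn at the lowest level shown. The colours overlap in 16 of the genes, and Rbfox3 and Aif1 are the exceptions, with every black point above all others.

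Transcripts of the interleukin gene Il1b and of Nlrp3 were low in all mice. Il1b was at 0.680, 1.06 and 0.868 CPM in the unligated and 0 to 1.33 CPM (median 0.681) in the ligated mice, and the inflammasome gene Nlrp3 at 2.12, 2.26 and 0.814 CPM and 1.45 to 2.86 CPM (median 1.96). Il6 had 0 to 24 counts in a library, Tnf 0 to 11, Il10 0 to 2 and Il17a 0 in all. These 4 genes did not pass the expression filter and were not tested. Of 16 inflammasome and pyroptosis genes 0 were higher and 0 lower at an unadjusted p below 0.05 in edgeR, and 1 was higher with DESeq2. Their median log2 fold change was -0.20, with 5 positive and 11 negative. The 20 tested cytokines and chemokines had a median of -0.061, with -0.48 in the CVST+Ligation and 0.27 in the 4-PBA mice. Of these 20, 0 were higher and 2 lower at an unadjusted p below 0.05. These were Cx3cl1, a chemokine made by neurons, at 542, 485 and 396 CPM and 191 to 400 CPM (median 293), and Il34, a ligand of the microglial receptor CSF1R, at 54.4, 55.9 and 58.3 CPM and 24.2 to 48.9 CPM (median 38.7). Their adjusted p was 0.155 and 0.167 in edgeR with Benjamini-Hochberg adjustment, and the sides overlapped in Cx3cl1 and not in Il34. Interferon-stimulated genes had 0 of 23 changed in either direction by either tool.

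Several markers of microglia were on the lower side in ligated mice. Aif1, which encodes Iba1, was at 19.1, 17.5 and 22.1 CPM without and 9.34 to 16.7 CPM (median 10.6) with ligation, without overlap (edgeR, Benjamini-Hochberg adjusted p = 0.123). Trem2, a microglial lipid receptor, was at 23.5, 26.4 and 27.1 CPM and 15.1 to 20.3 CPM (median 16.3), and its log2 fold change was -0.59 (standard error 0.13). C1qc of the complement starter C1q was at 89.2, 116 and 118 CPM and 58.3 to 88.6 CPM (median 64.7), and again the sides did not overlap. Of 18 homeostatic microglia genes, 7 were lower and 1 higher at an unadjusted p below 0.05, with a median of -0.32. The higher one was Sparc, at 167, 196 and 221 CPM and 342 to 774 CPM (median 605), which astrocytes and vessels also express. Summed, the homeostatic list overlapped, at 1165 to 1317 CPM without and 1076 to 1580 CPM with ligation. Sparc is part of this sum, which was not taken without it. Of the 18 members 3 had a positive and 15 a negative log2 fold change. Of 21 complement genes, 6 were lower and 1 higher. In 4-PBA 3 the microglial and astrocytic genes C1qa, Cd68 and Gfap were highest of the ligated mice. Cd68 was at 35.4, 43.6 and 38.4 CPM and 20.4 to 50.3 CPM (median 23.1), and the overlap came from that mouse alone. The activated microglia list had 1 of 23 higher and 1 lower. The higher one was Apoe, a lipid carrier that astrocytes also make, at 922, 1277 and 1565 CPM and 1529 to 2610 CPM (median 1824). The sum of the activated list was 2818 to 3212 CPM without and 2733 to 4161 CPM with ligation. Apoe is a large part of this sum, which was not taken without it. Of the 23 members 7 had a positive and 16 a negative log2 fold change, with a median of -0.18. Border-associated macrophages had 0 of 11 in either direction by either tool.

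Among lymphocyte transcripts, Ighm, the heavy chain of IgM, was at 68.5, 82.7 and 34 CPM in unligated and 14.1 to 33.9 CPM (median 19.5) in ligated mice, and Trbc2, a T cell receptor constant chain, at 15.9, 21.3 and 9.11 CPM and 0.379 to 4.31 CPM (median 2.36). Their log2 fold changes were -1.56 and -2.80, with an adjusted p of 0.0618 for each in edgeR with Benjamini-Hochberg adjustment, and neither gene overlapped between the sides. Of 8 tested lymphocyte genes 3 were lower and 2 higher. Without the 2 that passed the filter through ligated libraries alone, 3 were lower and 1 higher of 6, with a median log2 fold change of -1.32. The summed level of the list was 50 to 118 CPM without and 21.8 to 44.6 CPM with ligation and did not overlap. Ighm and Trbc2 make up much of the unligated sum, which was not taken without them. Of the 8 genes 4 had a positive and 4 a negative log2 fold change, so the sum does not describe the list as a whole. The lymphatic endothelium list, with genes of the VEGF-C axis, had 2 of 14 higher and 1 lower. Prox1, a factor of lymphatic endothelium that neurons also express, was at 6.93, 8.03 and 10.2 CPM and 13.7 to 44.8 CPM (median 20.7). Lyve1, the lymphatic receptor, was low, at 0.255, 0.177 and 0.108 CPM and 0.163 to 1.01 CPM (median 0.336).

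Of 20 oligodendrocyte and myelin genes, 12 were higher and 0 lower at an unadjusted p below 0.05, with a median log2 fold change of 0.68. Oligodendrocyte precursors had 5 of 12 higher. Of 18 astrocyte genes 10 were higher and 1 lower. Agt, angiotensinogen, was at 3.99, 7.14 and 47.4 CPM and 64.8 to 181 CPM (median 163), with CVST 3 apart from the other unligated mice, and Aqp4, the water channel of astrocyte endfeet, at 28.1, 41 and 17.9 CPM and 35.3 to 68.6 CPM (median 51.8). The reactive astrocyte list had 1 of 32 higher and 0 lower, with 12 members positive, 20 negative and a median of -0.11, and Gfap overlapped fully, at 792, 1216 and 608 CPM and 353 to 1621 CPM (median 714). The summed level of the oligodendrocyte list overlapped between the sides, at 4841 to 7383 CPM without and 4060 to 10637 CPM with ligation, and CVST+Ligation 1 had the lowest sum of all mice. The part of the sampled region in these glial differences was not tested.

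Pan-neuronal genes, which are common to all regions, had 3 of 14 lower and 1 higher, with a median of -0.11. Rbfox3, which encodes the neuronal marker NeuN, was at 212, 228 and 166 CPM in unligated and 105 to 159 CPM (median 129) in ligated mice. Its log2 fold change was -0.63 (standard error 0.15), with the smallest p of the 18 genes of stress, apoptosis, inflammation and cell types above (edgeR, Benjamini-Hochberg adjusted p = 0.0942). Snap25, a vesicle fusion protein, was at 1922, 2164 and 1731 CPM and 1128 to 1718 CPM (median 1288), with a log2 fold change of -0.51. In the CVST+Ligation and 4-PBA mice the change was -0.31 and -0.73 for Snap25 and -0.45 and -0.82 for Rbfox3. Between the arms edgeR's unadjusted p was 0.0098 and 0.0285, with a Benjamini-Hochberg adjusted p of 0.9998 for each. Nefh, a heavy neurofilament of large projection neurons, leaned upward, at 207, 231 and 188 CPM and 227 to 790.0 CPM (median 369). Axon guidance genes had 15 of 58 higher and 6 lower, and Ngef was the only member past the adjusted threshold. Dpysl5 was higher (1.02) and Robo3 lower (-1.97) on the log2 scale, with an adjusted p of 0.0618 for each in edgeR with Benjamini-Hochberg adjustment. Potassium channel genes had 17 of 59 lower and 6 higher. Kcnk4 and Kcnh4 led the lower ones, with log2 fold changes of -1.02 and -1.70.

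**Figure D4:**
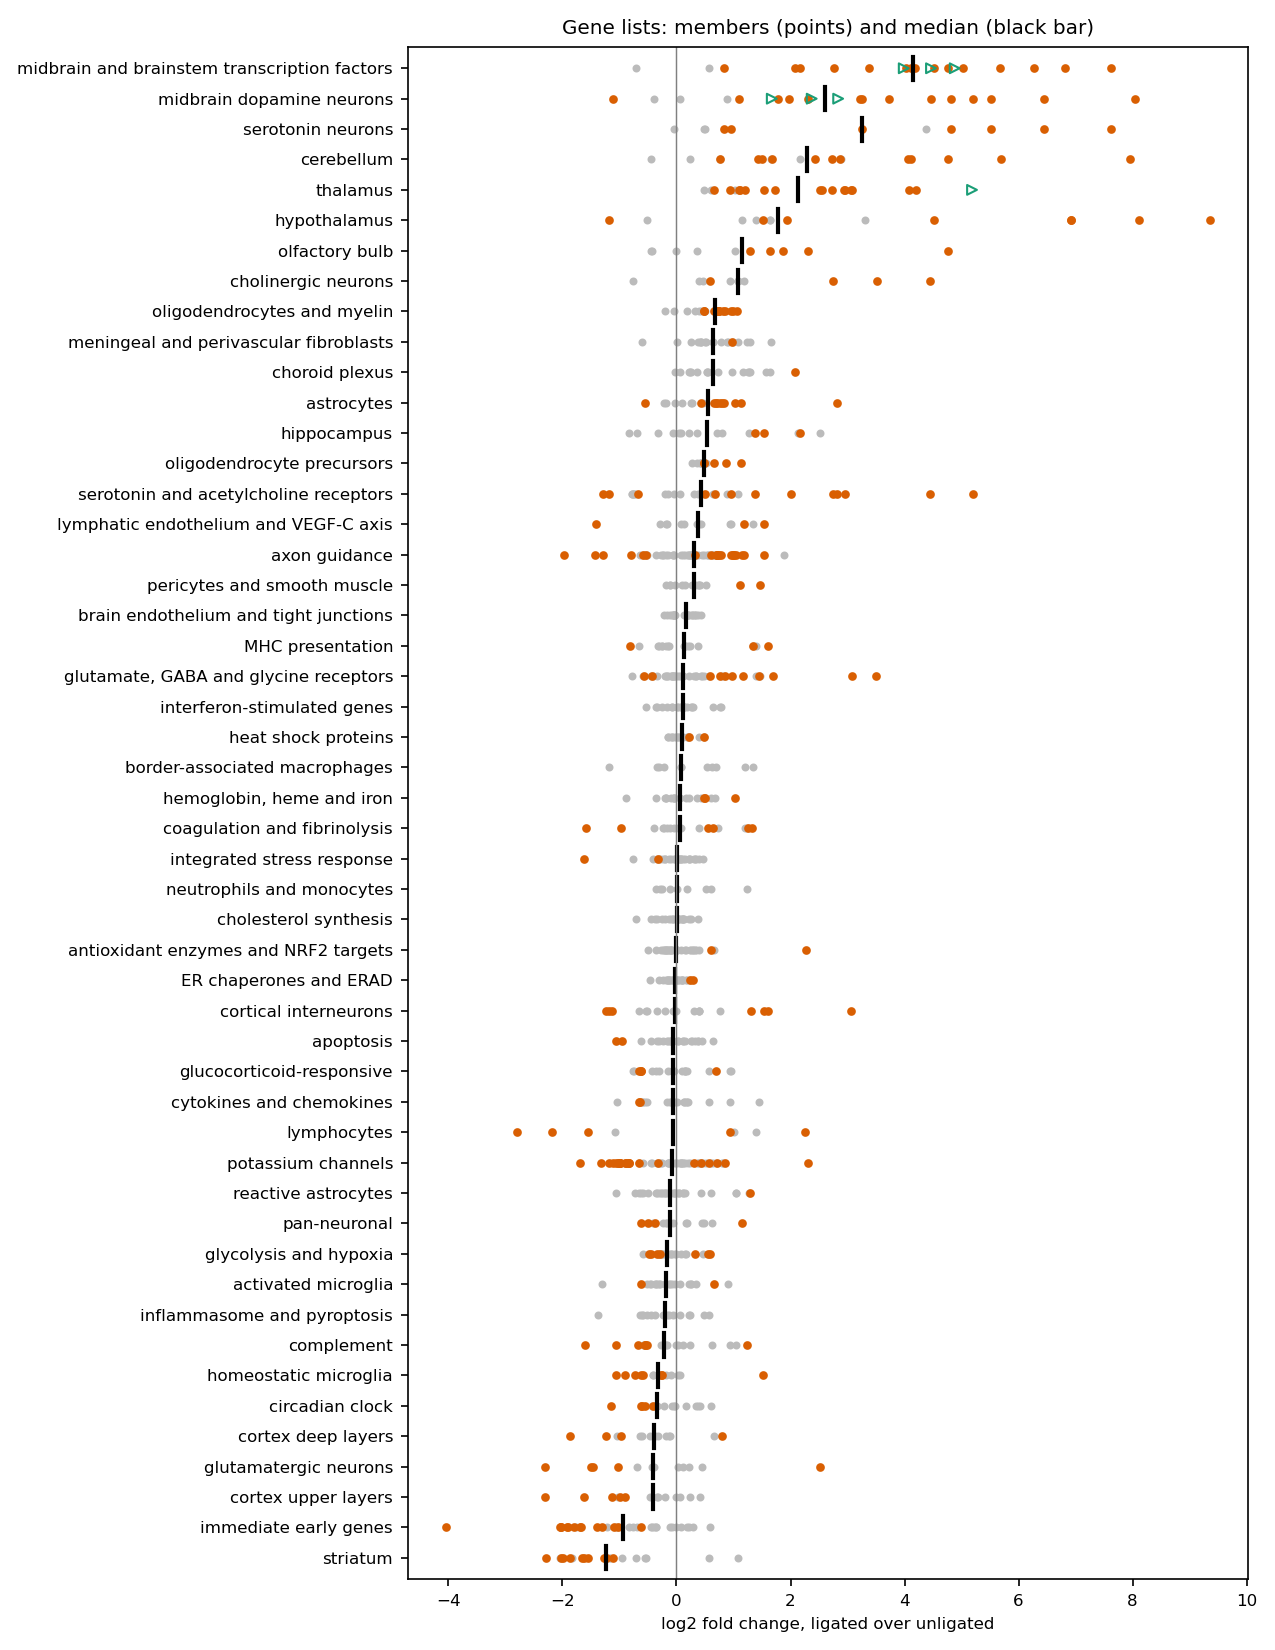
Log2 fold change of the tested members of 50 gene lists, ligated over unligated, with orange points for members at an unadjusted p below 0.05, grey points for the others and open triangles for members with 0 unligated counts, drawn at their lower bound. The black bar is the median of the list with these bounds. Region lists of midbrain, serotonin neurons, cerebellum and thalamus lie at the top, where members that passed the filter through ligated libraries alone raise the medians (that of serotonin neurons is 0.90 without them). Striatum and immediate early genes lie at the bottom, and ER chaperones and the integrated stress response lie near 0.

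The ligated side holds 2 arms, and each of them was also set against the same 3 CVST mice in a model of 3 groups. The arms share these CVST mice, and their values are therefore given side by side only. At an adjusted p below 0.05 there were 3 genes in the CVST+Ligation and 18 in the 4-PBA arm, and whether the arms differ in this was not tested. For Slc18a2 the log2 fold change was 5.63 in the CVST+Ligation mice and 5.38 in the 4-PBA mice. For Ddc it was 3.29 and 3.22, for Tcf7l2 4.06 and 4.32, and for Egr1 -1.63 and -1.73. Th had 2.02 and 2.54, and Chrna6 4.67 and 5.60. The 4-PBA mice were compared with the CVST+Ligation mice directly for each of the 32 genes, and 2 of them differed at an unadjusted p below 0.05 in edgeR, where 3.23% of all tested genes did. Cabp1 was at 53.8, 61.9 and 51.6 CPM in the CVST+Ligation and 36, 49.2 and 45.4 CPM in the 4-PBA mice (edgeR's unadjusted p = 0.0395). Gata3 was at 4.55, 10.7 and 3.65 CPM and 2.87, 0.589 and 2.93 CPM (edgeR's unadjusted p = 0.0382), with the highest value in CVST+Ligation 2. After Benjamini-Hochberg adjustment over all genes in edgeR 0 of the 32 differed between the arms, and the smallest adjusted p among them was 0.9998. With DESeq2, 78 of its 890 genes differed between the arms at an unadjusted p below 0.05. With 3 mice in each arm, a p above the threshold does not show that the drug left these genes as they were.

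Over all genes tested, 0 differed between the arms after adjustment in edgeR, and 476 did at an unadjusted p below 0.05. The latter included Pmch and Hcrt, which encode the hypothalamic peptides melanin-concentrating hormone and orexin. Pmch was at 0.255, 0.532 and 0.922 CPM in the CVST mice, 0.909, 1.19 and 17 CPM in the CVST+Ligation mice and 213, 316 and 378 CPM in the 4-PBA mice. Hcrt was at 0, 0 and 0.108 CPM, 0.165, 0.103 and 1.05 CPM and 23.9, 55.6 and 64.4 CPM in the same order. Both are members of the hypothalamic list, and the pooled comparison gave them an adjusted p of 0.136 and 0.157 in edgeR with Benjamini-Hochberg adjustment. Between the arms the adjusted p was 0.901 for Pmch and 0.111 for Hcrt in edgeR with Benjamini-Hochberg adjustment, at unadjusted p of 0.000301 and 7.53e-06. Against the unligated mice the log2 fold changes were 3.52 and 3.62 in the CVST+Ligation and 9.08 and 10.35 in the 4-PBA mice. CVST+Ligation 3 was the highest of its arm in both genes. Hcrt had 2 counts over the CVST libraries together, so the size of its fold changes rests on few reads.

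**Figure D5:**
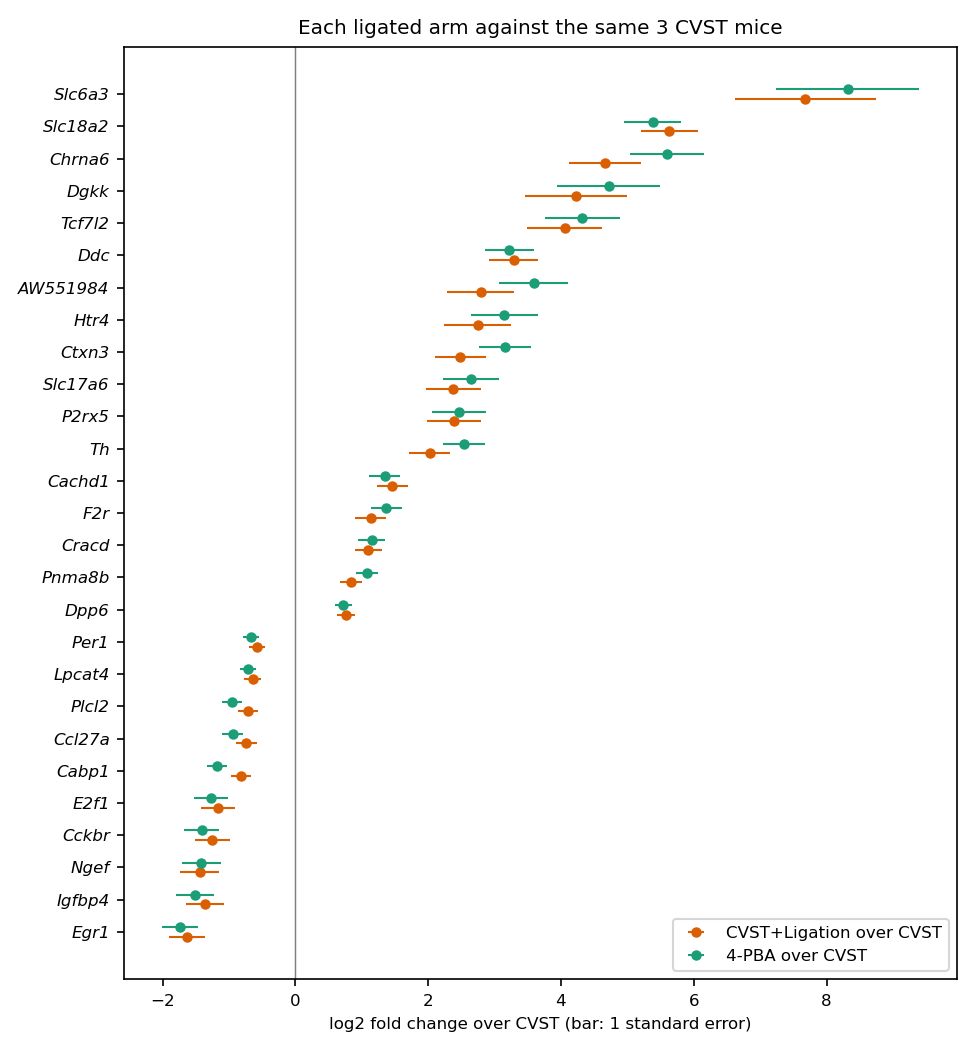
Log2 fold change over the same 3 CVST mice, in orange for the CVST+Ligation and in green for the 4-PBA arm, with bars of 1 standard error, for the 27 of the 32 genes with more than 3 counts in the CVST libraries together. Both arms lie on the same side of 0 in each gene, which the choice of genes by the pooled test favours, and Cabp1 is the gene of these with the smallest p between the arms.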

How the data were processed

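Brain RNA of 9 mice on day 2 was compared as 6 ligated (CVST+Ligation and 4-PBA) against 3 unligated (CVST) mice, with groups taken from the sample labels. Per the labels and methods, reads were filtered with fastp, aligned to mm10 with HISAT2, assembled with StringTie and quantified with RSEM (submitters' processing notes). HISAT2 was run in what the methods call orientation mode. Versions, annotation and the strand setting used in counting are not given in the sources used here, so overlapping or near-identical genes have uncertain counts. The authors deposited unnormalized read counts for 20731 gene symbols. The authors also deposited FPKM values, which the methods call TPM. They equal the count over the library total and 1 length per gene, and were used for gene lengths and for the limma alternatives.

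The count analysis used edgeR 4.0.16 in R 4.3.3 (TMM, filterByExpr, quasi-likelihood test, 2 sides, no covariate, Benjamini-Hochberg adjustment over 14746 genes). The ligated arms were compared in a model of 3 groups. Within groups, log2 CPM values correlated across genes and no library repeated another. Per the methods, 3 mice of each group were set aside for sequencing, so each sample was taken as 1 mouse. Alternatives were other scalings, filters, a replicate block, a length correction, a robust fit, DESeq2 1.42.0, limma 3.58.1 on log2(FPKM + 1) and log2(FPKM + 0.1), and fits without each library. On simulated data for this comparison (14602 genes, 200 changed), edgeR recovered 42% of 2-fold and 88% of 4-fold changes, with 4.41% of 136 calls false. DESeq2 recovered 80% of changed genes with 22.3% of 206 calls false. The simulation drew genes independently with edgeR's own dispersions. Genes that move together with 1 mouse were not simulated, so these rates need not hold for the real data.

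The 51 gene lists, the comparison and the tests were chosen with earlier results of these data known. Genes were named by rule: those the study names, in each direction the 12 of smallest p without overlap of the sides, the 5 largest changes in each direction past the adjusted threshold, the 4 smallest p in each list, and the 5 smallest arm p among the 32 genes. Plots were drawn with matplotlib 3.10.9. Genes with 0 counts in all libraries numbered 3285.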

Additional observations from a re-analysis of the deposited data

Results flagged for a closer look

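For 17 of the 113 genes examined, 1 ligated mouse lay apart from the other 5 by Dixon's criterion for 6 values, which flags about 1 in 20 groups by chance. CVST+Ligation 2 accounted for 9 of them. It was the highest ligated mouse for Ddc (127 CPM), the transcription factors En1 (8.66), Lhx5 (8.40), Irx1 (16.9), Barhl2 (13.7) and Zic1 (137), the calcium-binding protein Calb2 (384) and Ighm (33.9 CPM), and the lowest for Th (20.6 CPM). 4-PBA 2 was the highest for the striatal genes Ppp1r1b (253) and Rgs9 (82.9) and for Cd4 (6.94 CPM). 4-PBA 3 was the highest for C1qa (130.1), C1qc (88.6) and C1ra (8.42) of the complement system, for Cd68 (50.3) and for Gfap (1621 CPM).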

How the results depend on the processing

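The count of 32 genes at an adjusted p below 0.05 was 890 with DESeq2, 120 and 62 with limma on log2(FPKM + 0.1) and log2(FPKM + 1), 45 with total counts, 46 among genes with at least 1 count, 22 with DESeq2 size factors, 22 with the length correction, 11 in the model of 3 groups and 3 when 10 counts were required in each library, where 21 of the 32 were tested. Without 1 library it ranged from 1 to 142. Of the 32 genes, 32 remained with DESeq2, 22 with its size factors and 9 in the model of 3 groups, and 0 changed direction in any setting. The replicate block gave 22 genes and 14 of the 32. Same-numbered samples did not deviate together in every pair, so the numbers were not taken as pairs, and the block is given only as a check. The count at an unadjusted p below 0.05 stayed between 1877 and 2880. The number of called genes with an arm difference, 2 in the report, was 1 with size factors and with the length correction, 3 with total counts, the replicate block, the model of 3 groups and limma on log2(FPKM + 1), 6 with log2(FPKM + 0.1), 5 with at least 1 count, 0 with at least 10 counts and 78 with DESeq2, and 0 to 9 without 1 library. Mrc1 changed sign with the replicate block (0.15), with limma (0.00085 and 0.208) and without CVST 2 (1.34), Gfap without CVST 2 (0.15) and Nlrp3 without CVST 3 (-0.132). Without 1 library Mrc1 ranged from -0.831 to 1.34, Gfap from -0.54 to 0.15 and Nlrp3 from -0.132 to 0.463, all log2 fold changes of genes that did not pass. Where a count moved, the cause was not tested, except that fewer genes or samples entered some fits. List medians moved by more than the spread of the ligated mice in 44 cases and not in 976, mostly for region lists with low counts without ligation. Depth limits genes near 3 counts in the CVST mice, whose ratios depend on few reads.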

Other observations

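Lists that were not described above had the following counts at an unadjusted p below 0.05 in edgeR. Hippocampal genes had 3 of 16 higher and 0 lower, and their summed level overlapped, at 513 to 978 CPM without and 292 to 953 CPM with ligation. Choroid plexus genes had 1 of 18 higher, and their sum ranged from 357 to 4455 CPM among the ligated mice against 1146 to 1323 CPM among the unligated ones. Cortical interneuron genes had 4 of 20 higher and 3 lower, and Npy, a peptide of such neurons, was at 138, 98.6 and 145 CPM and 19.1 to 101 CPM (median 54). Genes of glutamatergic neurons had 4 of 12 lower and 1 higher, the last being Slc17a6. Nrgn, a calmodulin-binding protein of forebrain excitatory neurons, was at 1092, 1358 and 1129.7 CPM and 197 to 701 CPM (median 367), without overlap. Receptors for glutamate, GABA and glycine had 9 of 44 higher and 2 lower.

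Vascular lists had few members past this level in edgeR. Genes of brain endothelium and tight junctions had 0 of 22 changed in either direction by edgeR or DESeq2, with a median log2 fold change of 0.16. Pericytes and smooth muscle had 2 of 15 higher. Meningeal and perivascular fibroblasts had 1 of 20 higher in edgeR and 7 in DESeq2, with 19 of 20 positive and a median of 0.65. The summed level of this list was 656 to 915 CPM without and 830 to 2096 CPM with ligation, and the sides overlapped. Neutrophil and monocyte genes had 0 of 9 changed by either tool. Genes of hemoglobin, heme and iron had 3 of 19 higher, heat shock proteins 2 of 21, antigen presentation 2 of 19 higher and 1 lower, and glycolysis and hypoxia 3 of 29 higher and 4 lower. Glucocorticoid-responsive genes had 1 of 20 higher and 3 lower, Per1 among the latter. Cholesterol synthesis had 0 of 22 changed in edgeR and 2 higher in DESeq2.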
